A study of Mus musculus with 12 samples.

Results

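The Wnt ligands, the Frizzled receptors and the secreted antagonists were taken from the gene table by symbol: Wnt followed by a number and an optional a or b, Fzd followed by a number, Sfrp1 to Sfrp5, and Dkk1 to Dkk4. The rule found 37 of the 24453 genes in the table, namely 19 ligands, 10 receptors, 4 secreted frizzled-related proteins and 4 Dickkopf proteins. Of these, 23 had enough reads to be tested (10 ligands, 9 receptors, 2 secreted frizzled-related proteins and 2 Dickkopf proteins), and 14 did not. The rule used symbols alone, but it was chosen with earlier results of these data known.

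The study compared the ribosome-depleted RNA of 4 mouse cell lines, asking how gene expression changed when polynucleotide phosphorylase (PNPase, an RNA-degrading enzyme of mitochondria encoded by Pnpt1) was lost, and whether cells without mitochondrial DNA changed in a like way. TM6 is a line of mouse embryonic fibroblasts (MEFs) of the C57BL6/J strain, immortalized with SV40 large T antigen, that carries Pnpt1 neo-flox/neo-flox alleles, in which exon 2 lies between loxP sites. The rho0 line came from TM6 grown for 3 weeks in 750 ng/mL ditercalinium, a drug that depletes mitochondrial DNA, and then cloned from a single cell. The clones PKO-1 and PKO-6 were each isolated from a single cell of TM6 after adenoviral Cre recombinase. All 4 lines were grown in medium with 50 µg/mL uridine, which lets cells divide without respiration, and each was sequenced from 3 cultures (12 libraries). Each derived line is 1 clone, so a difference between a treatment and its parent and a difference between clones cannot be told apart from 1 line alone. The 3 cultures of a line are not separate derivations, and p-values in the fit of the 4 lines measure the spread between cultures. Values are given ± SD over the 3 libraries of a line, and log2 fold changes ± SE. In the main test, rho0 was compared with TM6 in a fit of 3 groups with both clones pooled as PKO, and each clone was also compared in a fit of the 4 lines. The fit of 3 groups treats the libraries of both clones as replicates of 1 group. Its spread, and so its p-values, also include the difference between the clones. A gene was called when its adjusted p, over all 14026 genes tested, was below 0.01 and its absolute log2 fold change above 0.5.

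Wnt proteins are lipid-modified secreted ligands that bind Frizzled receptors on the cell surface. In the canonical branch, Frizzled and the co-receptors Lrp5 and Lrp6 together stop the destruction of beta-catenin, which then acts with TCF/LEF factors on target genes. Other branches run through Ror and Ryk receptors and the planar polarity proteins and act on cell shape and movement. Secreted frizzled-related proteins bind Wnt ligands outside the cell, and Dickkopf proteins bind Lrp5 and Lrp6. Fibroblasts are a known source of both ligands and antagonists, and act through them on neighbouring epithelium.

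Between 47164860 and 67991378 counts were assigned to genes per library. Pnpt1, the targeted gene, averaged 3131, 5271, 1240.2 and 1944 normalized counts in TM6, rho0, PKO-1 and PKO-6, and remained detected in the clones, whose deletion covers 1 exon. The normalized count used throughout is the count scaled to a common effective library size. Of 10 fibroblast markers, 8 were tested, and the list summed to 538186 to 586120 normalized counts in TM6, 451857 to 504817 in rho0, 608427 to 658333 in PKO-1 and 355582 to 396530 in PKO-6, while Thy1 and Fap were near 0 in TM6. Single markers moved in different directions under this sum. In TM6, rho0, PKO-1 and PKO-6, Col1a1 averaged 182207, 61618.5, 98095.6 and 38368.7, and Fn1 averaged 113270, 237869, 259108 and 208419. In the same order Col3a1 averaged 4765, 476, 7011 and 329. Epithelial markers summed to 254 to 276 in TM6, 409 to 471 in rho0, 815 to 842 in PKO-1 and 107 to 136 in PKO-6, with Krt5 at 0 in every library. In TM6, rho0 and PKO-1 the sum was mostly Krt18 (242, 430.1 and 816 on average) and in PKO-6 mostly Epcam (88.0, against 4.35 in TM6), with Krt18 at 4.85 to 9.83. Endothelial markers summed to 44.9 to 86.8 in TM6, 20.3 to 32.1 in rho0, 27.9 to 55.9 in PKO-1 and 158 to 177 in PKO-6, there mostly Kdr (142 on average, against 55.2 in TM6). Blood markers, nearly all Cd68, summed to 72.6 to 154 in the other lines and 169 to 199.7 in PKO-6. Skeletal muscle markers, nearly all Des, summed to 5.19 to 15.5 in TM6 and rho0 and 39.4 to 54.8 in the clones. Neural markers, mostly Tubb3, summed to 163 to 193 in TM6 and PKO-6 and 372 to 534 in rho0 and PKO-1. Cd3e and Myog had no count. The part of these differences in the results was not tested. On chromosome 18, which holds Fzd8, the median gene differed from TM6 by log2 0.42 in rho0, 0.42 in PKO-1 and 0.34 in PKO-6. On chromosome 15, which holds Fzd6, Wnt10b and Wnt7b, it differed by -0.38 (rho0), -0.23 (PKO-1) and -0.092 (PKO-6).

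The secreted antagonists held some of the largest losses. Sfrp2, which binds Wnt ligands outside the cell, lay among the well-expressed genes of TM6 and was nearly absent from every derived line. Its 3 cultures gave 5615, 5699.6 and 5220.3 normalized counts in TM6, 1.94, 19.9 and 13.4 in rho0, 29.8, 26.6 and 24.8 in PKO-1, and 16.4, 14.5 and 25.2 in PKO-6. Every TM6 library lay far above every library of a derived line. In these bulk libraries, fewer expressing cells and less RNA per cell cannot be told apart. By edgeR's quasi-likelihood test, the log2 fold change was -8.90 ± 0.43 (adjusted p = 7.28e-08) in rho0, -7.67 ± 0.19 (adjusted p = 1.38e-12) in PKO-1 and -8.20 ± 0.20 (adjusted p = 5.39e-13) in PKO-6. The rho0 value rests in part on replicate 2, which had the most reads of the 3, and was -9.55 without it. The PKO-1 and PKO-6 levels overlapped, and their difference was not significant (log2 0.53 ± 0.35, adjusted p = 0.211).

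Sfrp1, of the same subfamily, fell in the same lines but to different levels. It gave 379.6, 369 and 338 normalized counts in TM6, 3.87, 1.11 and 3.35 in rho0, 0 in all 3 PKO-1 libraries, and 39.3, 45.6 and 49.4 in PKO-6. Every TM6 library lay above every other library, and PKO-6 was the derived line that kept the most. PKO-1 had no count, so its level was at least 332-fold lower than in TM6, taking 3 counts over the group as the floor, and at least 40.7-fold lower than in PKO-6. In PKO-6 the log2 fold change against TM6 was -3.02 ± 0.16 (adjusted p = 7.44e-09). In rho0 it was -6.95 ± 1.67 (adjusted p = 0.00486), a call that was lost when any 1 of the TM6 or rho0 libraries was left out of the fit of 3 groups and held with the 4 lines fitted separately (log2 -6.94 ± 0.24, adjusted p = 2.42e-10).

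Per length, Sfrp2 made up 97.2% ± 0.09 (SD, n = 3) of the summed TPM (transcript counts scaled to gene length and library total) of the 4 secreted frizzled-related genes in TM6. That sum was 94.5 ± 3.91 TPM in TM6, 0.280 ± 0.13 in rho0, 0.443 ± 0.031 in PKO-1 and 0.683 ± 0.18 in PKO-6. Sfrp4 and Sfrp5 averaged at most 2.13 normalized counts in any line and were not tested. The gene usually called Sfrp3 stands in the table as Frzb, outside the symbol rule. It had 4.07 ± 0.663 normalized counts in TM6, 2.08 ± 0.908 in rho0, 0.752 ± 0.654 in PKO-1 and 39.3 ± 9.31 in PKO-6, and was called higher in PKO-6 than in TM6 (log2 3.23 ± 0.36, adjusted p = 1.99e-06), the opposite direction to Sfrp1 and Sfrp2. Its libraries held 44, 48 and 33 counts in PKO-6 and at most 5 elsewhere. Frzb therefore passed the filter on low counts only through PKO-6 and could only be called higher there. Frzb was named after its values were seen.

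The Dickkopf genes separated the 2 PKO clones. Dkk2, which binds Lrp5 and Lrp6, gave 217, 266 and 216 normalized counts in TM6, 40.7, 51.0 and 63.6 in rho0, 298, 273 and 231 in PKO-1, and 1.64, 1.04 and 5.82 in PKO-6. PKO-1 overlapped TM6, rho0 was lower, and PKO-6 was almost without reads. The log2 fold change against TM6 was -6.32 ± 0.32 (adjusted p = 5.62e-10) in PKO-6 and 0.20 ± 0.18 (adjusted p = 0.357) in PKO-1, where it was not called. Between the clones it was 6.51 ± 0.31 (adjusted p = 7.91e-10). Replicate 3 held 6 of the 9 PKO-6 counts, and without it the values were -7.28 against TM6 and 7.48 between clones. For rho0 the fit of 4 lines gave -2.17 ± 0.21 (adjusted p = 4.51e-07), while the fit of 3 groups, whose spread includes the difference between clones, gave an adjusted p of 0.246.

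Dkk3, a divergent member of the family whose place in Wnt signalling is less settled, averaged 78.0 ± 3.60 normalized counts in TM6, 3.24 ± 1.25 in rho0, 14.2 ± 2.18 in PKO-1 and 1.65 ± 2.20 in PKO-6. It was called lower in every derived line, with log2 fold changes of -4.55 ± 1.02 (adjusted p = 0.00314) in rho0, -2.45 ± 0.31 (adjusted p = 1.19e-05) in PKO-1 and -5.53 ± 0.44 (adjusted p = 6.77e-08) in PKO-6. PKO-1 kept more than PKO-6 (log2 3.09 ± 0.56, adjusted p = 0.000278). Replicate 2 of PKO-6 moved these values to -7.14 against TM6 and 4.66 between clones when left out. The rho0 call in the fit of 3 groups was lost without any 1 of the rho0 libraries, with adjusted p between 0.0136 and 0.0168. It held with 4 lines fitted, at -4.56 ± 0.40 (adjusted p = 2.19e-07). Dkk1 and Dkk4, a classic pair of canonical antagonists, averaged at most 1.39 normalized counts in any line. The summed Dickkopf level was 2.78 ± 0.23 TPM in TM6, 0.517 ± 0.12 in rho0, 2.32 ± 0.23 in PKO-1 and 0.050 ± 0.010 in PKO-6.

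**Figure D1:**
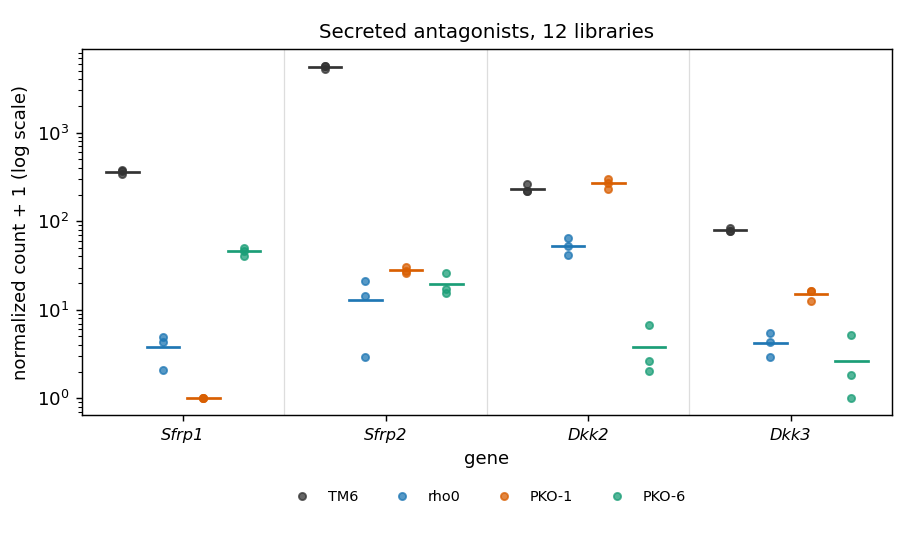
Normalized counts plus 1 of the tested antagonists Sfrp1, Sfrp2, Dkk2 and Dkk3 in each of the 12 libraries (points) with the mean of each line (horizontal lines), on a log axis. The TM6 libraries of Sfrp2 average 5512 and the derived lines 11.8 to 27.1, and Dkk2 averages 233 in TM6, 267 in PKO-1 and 2.83 in PKO-6.

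Sequence just before the start site is shown for 5 members whose levels moved most in one direction or in opposite directions between clones and for which RefSeq had a window: Sfrp2 and Wnt16, low in every derived line, Wnt9a, high in every derived line, and Dkk2 and Wnt7a, which differed most between the clones. Each is the 250 bases before the RefSeq start on GRCm38.p6, written 5′ to 3′ along the gene's strand, with CG pairs in capitals.
Sfrp2 (chr3:83766071-83766320, plus strand): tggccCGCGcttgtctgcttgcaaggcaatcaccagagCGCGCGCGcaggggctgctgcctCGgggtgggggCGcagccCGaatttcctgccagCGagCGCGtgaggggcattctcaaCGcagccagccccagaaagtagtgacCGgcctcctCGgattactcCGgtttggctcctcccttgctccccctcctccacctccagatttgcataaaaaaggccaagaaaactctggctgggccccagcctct
Wnt16 (chr6:22287977-22288226, plus strand): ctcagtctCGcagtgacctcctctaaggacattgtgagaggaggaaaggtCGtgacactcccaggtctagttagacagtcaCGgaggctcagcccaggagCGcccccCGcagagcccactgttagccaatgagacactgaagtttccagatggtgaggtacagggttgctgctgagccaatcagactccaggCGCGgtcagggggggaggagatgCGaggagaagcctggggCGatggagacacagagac
Wnt9a (chr11:59306680-59306929, plus strand): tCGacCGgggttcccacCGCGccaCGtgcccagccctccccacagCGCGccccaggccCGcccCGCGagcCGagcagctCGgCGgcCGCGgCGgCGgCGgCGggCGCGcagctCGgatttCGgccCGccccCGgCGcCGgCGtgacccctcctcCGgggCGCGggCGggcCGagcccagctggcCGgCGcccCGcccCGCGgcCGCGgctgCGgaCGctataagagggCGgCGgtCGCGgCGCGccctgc
Dkk2 (chr3:132085042-132085291, plus strand): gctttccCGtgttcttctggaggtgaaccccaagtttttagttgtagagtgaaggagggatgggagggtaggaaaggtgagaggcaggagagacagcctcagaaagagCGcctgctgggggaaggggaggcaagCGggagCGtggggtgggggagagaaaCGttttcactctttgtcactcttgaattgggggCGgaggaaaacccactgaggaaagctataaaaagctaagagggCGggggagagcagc
Wnt7a (chr6:91411354-91411603, minus strand): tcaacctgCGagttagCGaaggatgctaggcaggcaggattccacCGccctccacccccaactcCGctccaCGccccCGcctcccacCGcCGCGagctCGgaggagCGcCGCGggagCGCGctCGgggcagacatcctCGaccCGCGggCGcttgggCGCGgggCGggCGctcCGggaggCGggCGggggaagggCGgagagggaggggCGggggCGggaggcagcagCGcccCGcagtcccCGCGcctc
These 250 bases hold 16 CG pairs for Sfrp2, 9 for Wnt16, 48 for Wnt9a, 7 for Dkk2 and 34 for Wnt7a. The deposited annotation ends Wnt7a, on the minus strand, at 91411369, slightly upstream of the RefSeq start. RefSeq windows of 300 bases (250 before and 50 after the start) were used for 25 of the 37 members, as 28 windows. The members without a window here were Wnt10a, Sfrp1, Dkk3, Wnt5a, Fzd2, Fzd3, Fzd6, Dkk4, Sfrp4, Fzd8, Wnt7b and Wnt8a. For Fzd8 and Wnt8a this does not show that RefSeq lacks a window. The median of the 28 windows was 26.5 CG pairs, against 7 over all 32851 windows (quartiles 3 and 20). A TCF/LEF core, CTTTGA or CTTTGT on either strand, stood in 8 of the 28 windows and in 31.2% of all windows. TATAAA on the gene's strand stood in 4 of the 28 and in 8.32% of all. Dkk2 had both, with its TCF core 80 bases before the start, and Sfrp2, Wnt16, Wnt9a and Wnt7a had neither. No methylation, binding or accessibility was measured, so these are descriptions of letters only.

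Among the ligands, Wnt9a rose and several others fell to near 0. Wnt9a (chr11:59306930-59333552, plus strand), a canonical ligand known from joint formation, gave 171, 154 and 137 normalized counts in TM6, 2435, 2083 and 2209.8 in rho0, 423, 449 and 430.2 in PKO-1, and 2036, 1830.3 and 1829 in PKO-6. All 9 derived libraries lay above the TM6 range, with PKO-1 between TM6 and the other lines. The log2 fold change was 3.86 ± 0.69 (adjusted p = 0.000741) in rho0, 1.49 ± 0.094 (adjusted p = 9.49e-09) in PKO-1 and 3.62 ± 0.091 (adjusted p = 7.14e-13) in PKO-6, and PKO-1 was below PKO-6 by a significant -2.13 ± 0.082 (adjusted p = 9.1e-11). Its neighbour Wnt3a, on the opposite strand of chromosome 11 with its annotated start 16.2 kb away, had no count in any of the 12 libraries.

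Wnt10a (chr1:74792019-74804175, plus strand), a ligand of tooth and hair development, was lost from every derived line. Its libraries gave 156, 159.5 and 122 normalized counts in TM6, 0, 0 and 1.12 in rho0, 0 in all 3 PKO-1 libraries, and 0 in all 3 PKO-6 libraries. Outside TM6 there was 1 read, in rho0 replicate 3, without which rho0 had none. TM6 exceeded rho0 by a count ratio of 415 (exact 95% counting interval 74.1 to 16400), and Wnt10a was at least 134-fold lower in PKO-1 and at least 157-fold lower in PKO-6 than in TM6. The adjusted p was 0.000118 for rho0, 1.91e-07 for PKO-1 and 9.7e-08 for PKO-6. Wnt10a passed the filter on low counts only through TM6, so against TM6 it could only be called lower. Wnt6, which lies 6.7 kb from Wnt10a on chromosome 1, had 13 counts over the TM6 libraries and none in the other 9, at least 3.83-fold lower in rho0, 3.71-fold lower in PKO-1 and 4.35-fold lower in PKO-6. Wnt6 did not pass the filter on low counts and was not tested.

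Wnt16 and Wnt5b were low in TM6 and lower elsewhere. Both passed the filter on low counts only through TM6, so against TM6 they could only be called lower. Wnt16 (chr6:22288227-22298522, plus strand), a ligand known from bone, averaged 46.5 ± 11.5 normalized counts in TM6, 8.61 ± 3.26 in rho0, 1.44 ± 0.547 in PKO-1 and 4.31 ± 0.537 in PKO-6. It fell by log2 -2.43 ± 0.47 (adjusted p = 0.00129) in rho0, -4.89 ± 0.43 (adjusted p = 2.58e-07) in PKO-1 and -3.39 ± 0.34 (adjusted p = 7.09e-07) in PKO-6. Wnt5b, a ligand of the beta-catenin-independent branch, averaged 34.4 ± 6.50 normalized counts in TM6, 2.45 ± 0.393 in rho0, 5.09 ± 0.291 in PKO-1 and 2.77 ± 0.728 in PKO-6. Its changes were -3.74 ± 0.41 (adjusted p = 2.38e-05) in rho0, -2.73 ± 0.31 (adjusted p = 3.05e-06) in PKO-1 and -3.57 ± 0.33 (adjusted p = 3.17e-07) in PKO-6. The annotated Wnt5b overlaps Fbxl14 on the other strand, and whether the authors' counting used strand is not given in the sources used here, so its reads are uncertain.

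Wnt5a, the main beta-catenin-independent ligand, fell in both clones and not in rho0. It gave 579, 680.2 and 667 normalized counts in TM6, 816, 790.0 and 816 in rho0, 205, 208 and 185 in PKO-1, and 104, 77.7 and 92.1 in PKO-6. The rho0 libraries lay just above every TM6 library, PKO-1 lay far below, and PKO-6 was lowest, with no overlap between the clones and the other lines. The log2 fold change against TM6 was -1.69 ± 0.10 (adjusted p = 7.04e-09) in PKO-1 and -2.81 ± 0.11 (adjusted p = 4.83e-11) in PKO-6. For rho0 it was 0.33 ± 0.096 (adjusted p = 0.00685) with 4 lines fitted, under the 0.5 needed for a call. With the clones pooled, PKO was lower than rho0 by log2 -2.48 ± 0.29 (adjusted p = 0.000104). The clones also differed from each other (log2 1.12 ± 0.11, adjusted p = 1.59e-06). RSEM divided the reads between 2 annotated transcripts. The longer, at chr14:28505473-28525515 on the plus strand, took 56.7% to 71.8% of them over the TM6 libraries, 58.8% to 68.0% in rho0, 36.9% to 70.6% in PKO-1 and 62.8% to 98.7% in PKO-6, so the shares of the lines overlapped.

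Wnt7a moved in opposite directions in the clones. This ligand, known from limb patterning, gave 101, 103 and 127 normalized counts in TM6, 46.5, 23.3 and 42.4 in rho0, 3.57, 8.52 and 15.5 in PKO-1, and 648, 711 and 604 in PKO-6. PKO-6 lay above every TM6 library and PKO-1 below, and rho0 was between PKO-1 and TM6. By edgeR it changed against TM6 by log2 2.57 ± 0.20 (adjusted p = 5.79e-08) in PKO-6 and -3.53 ± 0.31 (adjusted p = 3e-07) in PKO-1, and between clones -6.10 ± 0.28 (adjusted p = 5.3e-10). Without replicate 3 of PKO-1 the PKO-1 value became -4.13 and the difference between clones -6.70. In rho0 it was -1.55 ± 0.24 (adjusted p = 6.38e-05) with 4 lines fitted, and not significant in the fit of 3 groups (adjusted p = 0.41). Wnt7b, a ligand of lung and kidney development, averaged 12.8 ± 3.20 normalized counts in TM6, 0.695 ± 0.606 in rho0, 1.05 ± 1.07 in PKO-1 and 22.0 ± 1.45 in PKO-6. It differed between the clones by a count ratio of 20.2 (95% counting interval 6.64 to 100, PKO-6 over PKO-1, adjusted p = 1.42e-05). Wnt7b passed the filter on low counts only through PKO-6, so between the clones it could only be called lower in PKO-1. Against TM6 it was lower in PKO-1, where 3 reads were found (count ratio TM6 over PKO-1 11.7, interval 3.73 to 59.1, adjusted p = 0.000177), and in rho0, with 2 reads (18.1, interval 4.70 to 154), where it was called with 4 lines fitted. Of the 3 PKO-1 reads, 2 were in replicate 2, without which the fitted log2 fold changes, which depend on the prior count, were -4.25 against TM6 and -5.03 between clones. With the annotated Wnt7b overlapping AU022754 on the other strand, its counts are uncertain too.

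Wnt10b, a canonical ligand that favours bone over fat differentiation, led the ligands of TM6 by TPM. Its libraries held 1335, 738 and 1108 normalized counts in TM6, 465, 572 and 612 in rho0, 806, 717 and 1241 in PKO-1, and 306, 218 and 293 in PKO-6. PKO-1 overlapped TM6, and PKO-6 lay below both. The log2 fold change against TM6 was -1.96 ± 0.24 (adjusted p = 5.05e-06) in PKO-6 and -0.20 ± 0.22 (adjusted p = 0.442) in PKO-1, and between clones it was 1.75 ± 0.24 (adjusted p = 2.21e-05). For rho0 it was -0.95 ± 0.23 (adjusted p = 0.00192) with 4 lines fitted and had an adjusted p of 0.178 with 3 groups. Its neighbour Wnt1, 11.7 kb away on chromosome 15, averaged at most 2.88 normalized counts in any line.

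Wnt4, a ligand of kidney and reproductive tract development, gave 137, 85.0 and 86.8 normalized counts in TM6, 88.1, 167 and 134 in rho0, 29.8, 53.3 and 57.9 in PKO-1, and 61.4, 54.9 and 50.4 in PKO-6. Its rho0 and TM6 libraries overlapped and all 6 PKO libraries lay lower. With the clones pooled, PKO was below TM6 (log2 -1.0 ± 0.26, adjusted p = 0.00856) and below rho0 (log2 -1.33 ± 0.26, adjusted p = 0.00306). The first call was lost without any 1 of the TM6 or PKO-6 libraries, rho0 replicate 3, or PKO-1 replicate 2 or 3, with adjusted p between 0.0105 and 0.0565, and the second without rho0 replicate 2 or 3 (-1.12 with adjusted p = 0.0239, and -1.33 with adjusted p = 0.0159). In PKO-1 alone the value was -1.12 ± 0.29 (adjusted p = 0.00348), lost without TM6 replicate 1 or PKO-1 replicate 1. Wnt2b, a ligand of lung and eye development, averaged 33.9 ± 10.5 normalized counts in TM6, 65.9 ± 23.5 in rho0, 26.2 ± 3.81 in PKO-1 and 36.9 ± 3.37 in PKO-6, and was called higher in rho0 only with 4 lines fitted (log2 0.95 ± 0.28, adjusted p = 0.00838).

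**Figure D2:**
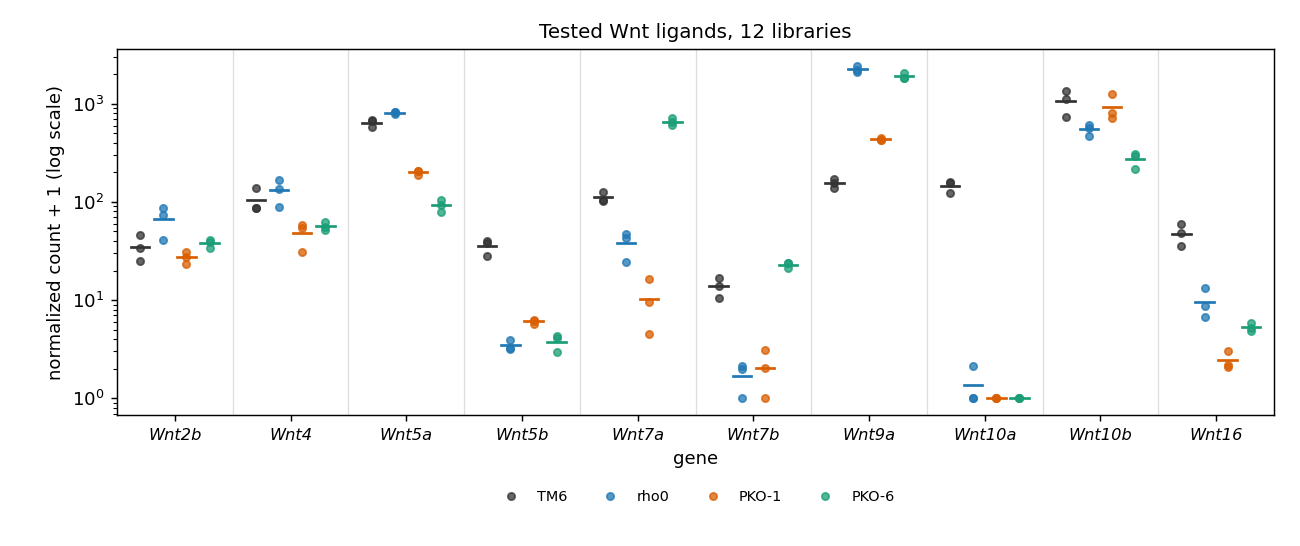
Normalized counts plus 1 of the 10 tested Wnt ligands in each of the 12 libraries (points) with the mean of each line (horizontal lines), on a log axis. Wnt9a is above TM6 in every derived line, Wnt10a is at 0 in every PKO library, and Wnt7a is highest in PKO-6 and lowest in PKO-1.

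Compared per length, the leading ligand changed between lines while the sum changed less. The summed TPM of the 19 ligands was 28.7 ± 4.57 in TM6, 37.9 ± 2.68 in rho0, 19.5 ± 4.81 in PKO-1 and 29.7 ± 2.10 in PKO-6. Wnt10b made up 54.0% ± 7.81 of it in TM6 and 66.3% ± 6.29 in PKO-1, but 21.2% ± 2.89 in rho0 and 13.1% ± 1.98 in PKO-6. Wnt9a made up 5.24% ± 0.80 in TM6, 56.4% ± 4.15 in rho0, 21.2% ± 4.23 in PKO-1 and 59.4% ± 0.49 in PKO-6. Wnt10b thus led the TPM order in TM6 and PKO-1 and Wnt9a led it in rho0 and PKO-6, in each case beyond the spread over the 3 libraries. Wnt5a came next in TM6 with 17.7% ± 4.26, ahead of Wnt10a with 8.83% ± 2.11. In PKO-6 the next place was held by Wnt7a, with 21.5% ± 2.26. Shares of this kind are a description and were not tested.

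The remaining 9 ligands could not be tested. Wnt3a had no count in any library. Wnt1, Wnt2, Wnt3, Wnt8a, Wnt8b and Wnt9b averaged between 0 and 4.35 normalized counts in every line. Wnt11, a ligand of cell movement in the embryo, had 24 counts over the TM6 libraries, none in rho0 or PKO-1 and 1 in PKO-6. That is at least 7.06-fold lower in rho0 and at least 6.85-fold lower in PKO-1, and a count ratio of 24.1 (95% counting interval 3.93 to 990) between TM6 and PKO-6. At this depth a mean under 1 normalized count was not distinguishable from no expression.

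Among the receptors the largest change was that of Fzd2. Fzd2, a receptor for Wnt5a among others, gave 6586, 6151 and 5771 normalized counts in TM6, 2557, 1965 and 1965 in rho0, 4171, 4519 and 4451 in PKO-1, and 1880.1, 2181 and 1577 in PKO-6. It was lowest in PKO-6 and rho0, and PKO-1 lay between these and TM6 with no overlap. The log2 fold change was -1.51 ± 0.38 (adjusted p = 0.00665) in rho0, -1.72 ± 0.12 (adjusted p = 1.25e-08) in PKO-6 and -0.49 ± 0.11 (adjusted p = 0.00155) in PKO-1, the last under the size needed for a call. PKO-1 was above PKO-6 (log2 1.22 ± 0.12, adjusted p = 6.96e-07). The rho0 call with 3 groups was lost without any 1 of the 6 TM6 and rho0 libraries and held with 4 lines fitted (log2 -1.51 ± 0.12, adjusted p = 5.04e-08).

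Fzd1, which with Fzd2 and Fzd7 forms one sequence subfamily, gave 1387, 1320.3 and 1221 normalized counts in TM6, 589, 476 and 571 in rho0, 509, 499.5 and 517 in PKO-1, and 928, 1083 and 822 in PKO-6. It was lower in rho0 (log2 -1.26 ± 0.29, adjusted p = 0.00352) and PKO-1 (log2 -1.36 ± 0.10, adjusted p = 6.79e-08), and PKO-6 lay between these and TM6. PKO-6 differed from TM6 by log2 -0.47 ± 0.10 (adjusted p = 0.000787), which was under the size needed for a call. Between the clones the difference was -0.89 ± 0.10 (adjusted p = 5.49e-06). The rho0 call with 3 groups was lost without TM6 replicate 1 or 2 or rho0 replicate 2 or 3 and held with 4 lines fitted (log2 -1.26 ± 0.10, adjusted p = 1.03e-07). Fzd7 averaged 2599 ± 61.8 normalized counts in TM6, 2356 ± 113 in rho0, 3293 ± 33.9 in PKO-1 and 2457 ± 153 in PKO-6 and was called in none of the 6 comparisons.

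Fzd6, a receptor of tissue polarity, moved most in PKO-1. Its libraries held 3243, 3361 and 3346 normalized counts in TM6, 2869, 2561 and 2780.4 in rho0, 1408, 1292 and 1261 in PKO-1, and 2149, 2424 and 2389.9 in PKO-6. All PKO-1 libraries lay below all PKO-6 libraries, with rho0 between PKO-6 and TM6. By edgeR it changed against TM6 by log2 -1.33 ± 0.064 (adjusted p = 5.87e-10) in PKO-1, -0.52 ± 0.062 (adjusted p = 4.52e-06) in PKO-6, and by -0.81 ± 0.064 (adjusted p = 1.04e-07) between clones. Fzd6 lies on chromosome 15, where the median gene was lower in rho0 and PKO-1 and, by less, in PKO-6. The PKO-6 value stood just past 0.5 and was not called without PKO-6 replicate 1 or with chromosome medians removed (log2 -0.44). Fzd3, which acts with Fzd6 in tissue polarity and axon guidance, gave 175, 205 and 167 normalized counts in TM6, 185, 249 and 255 in rho0, 145, 152 and 155 in PKO-1, and 314, 276 and 315 in PKO-6. PKO-6 was highest and PKO-1 lowest. It rose in PKO-6 (log2 0.73 ± 0.13, adjusted p = 0.00018) and the clones differed by -0.999 ± 0.13 (adjusted p = 1.83e-05).

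Fzd5 and Fzd8, a pair of closely related canonical receptors, were both higher in PKO-1 than in PKO-6. Fzd5 gave 1754, 1539 and 1588 normalized counts in TM6, 884, 847 and 839.7 in rho0, 1921, 2073 and 2245 in PKO-1, and 1051, 1155 and 1035 in PKO-6. Every PKO-1 library lay above TM6, and rho0 and PKO-6 lay below it. Its log2 fold change was -0.59 ± 0.071 (adjusted p = 4.75e-06) in PKO-6, -0.93 ± 0.072 (adjusted p = 6.51e-08) in rho0 with 4 lines fitted and 0.95 ± 0.071 (adjusted p = 7.3e-08) between clones. Fzd8 gave 713, 638 and 588 normalized counts in TM6, 398, 335 and 371 in rho0, 688, 748 and 712 in PKO-1, and 437, 532 and 384 in PKO-6. Here PKO-1 overlapped TM6, and the rho0 and PKO-6 libraries lay below it. Its values were -0.52 ± 0.11 (adjusted p = 0.00106) in PKO-6, -0.81 ± 0.12 (adjusted p = 2.7e-05) in rho0 with 4 lines fitted and 0.67 ± 0.12 (adjusted p = 0.000196) between clones, on chromosome 18, where the median gene was higher in every derived line. The PKO-6 call for Fzd8 was lost without TM6 replicate 1 or PKO-6 replicate 3.

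Fzd4, the receptor of Norrin in retinal vessels, gave 276, 324 and 266 normalized counts in TM6, 333, 279 and 300.4 in rho0, 240.5, 246 and 239.9 in PKO-1, and 203, 196 and 201 in PKO-6. The libraries of both clones lay below TM6, and PKO-6 was called, by log2 -0.53 ± 0.10 (adjusted p = 0.000324), and that call was lost without TM6 replicate 2. Fzd9 averaged 19.7 ± 2.93 normalized counts in TM6, 24.6 ± 5.27 in rho0, 10.8 ± 6.22 in PKO-1 and 32.0 ± 10.1 in PKO-6. It was called only between the clones (log2 -1.57 ± 0.39, adjusted p = 0.00294), and not without PKO-1 replicate 2 or PKO-6 replicate 2 (adjusted p = 0.014 and 0.0139). Fzd10 had no count in any library.

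**Figure D3:**
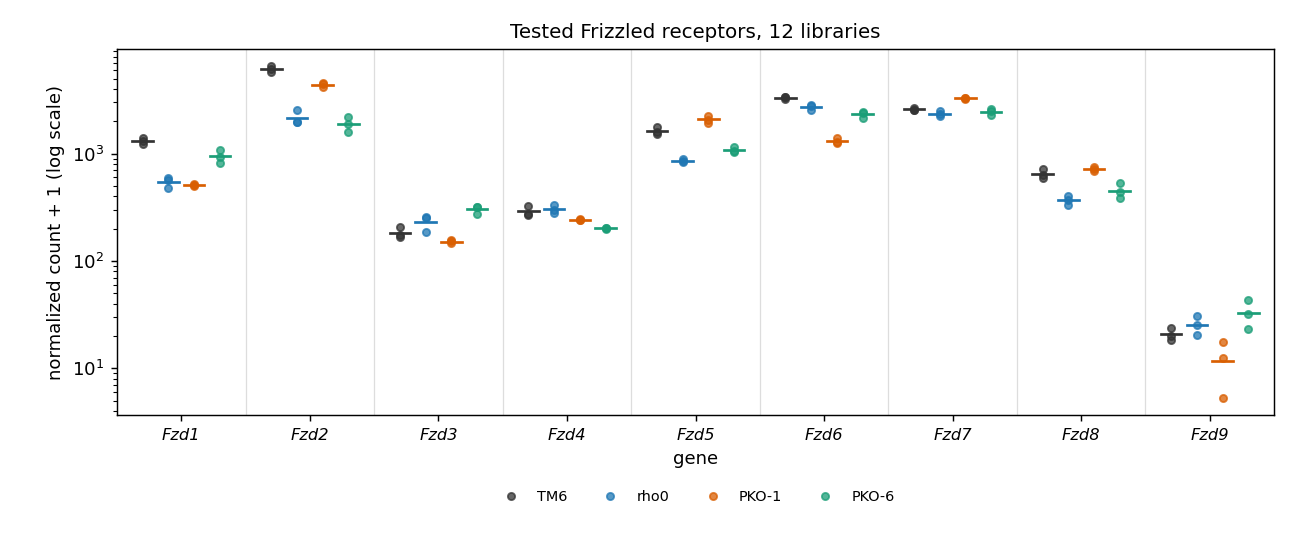
Normalized counts plus 1 of the 9 tested Frizzled receptors in each of the 12 libraries (points) with the mean of each line (horizontal lines), on a log axis. Fzd2 is highest in TM6, Fzd6 is lowest in PKO-1, and the line means of Fzd7 run from 2356 to 3293.

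Summed per length, the 10 receptors gave 123 ± 4.97 TPM in TM6, 69.4 ± 0.50 in rho0, 88.7 ± 3.81 in PKO-1 and 66.9 ± 2.87 in PKO-6. Fzd2 made up 44.0% ± 1.21 of this in TM6 and 41.5% ± 1.01 in PKO-1. In rho0 it made up 26.8% ± 2.19 and Fzd6 made up 30.2% ± 1.2, and their libraries overlapped. In PKO-6, Fzd2 with 23.6% ± 1.93 overlapped both Fzd6 with 26.0% ± 2.36 and Fzd7 with 23.1% ± 0.72, while Fzd6 lay above Fzd7 in every library. Fzd6 made up 20.9% ± 1.14 in TM6 and 11.1% ± 0.84 in PKO-1. TPM is relative to everything counted in a library, and the 45S ribosomal precursor Rn45s took 12.2% to 19.6% of the counts.

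Counts of called members are given beside the share of all 14026 genes tested. Wnt10a, Wnt16 and Wnt5b passed the filter on low counts only through TM6, where they were high, so against TM6 they could only be called lower, and Wnt7b passed only through PKO-6. The counts and medians therefore describe the members that passed and not all 37. In rho0 against TM6, 1 of the 23 tested members was called higher (4.35%, against 13.7% of all genes) and 8 lower (34.8%, against 15.6% of all genes), and their median log2 fold change was -0.95 against 0.018 over all genes. The 9 calls fell to 5 without rho0 replicate 2 or 3. With the 4 lines fitted separately the same comparison gave 2 higher and 14 lower, against 20.7% and 21.4% of all genes. Leaving out the 3 that passed only through TM6, 5 of 20 were lower with 3 groups and 11 of 20 with 4 lines. The members called lower with 3 groups were Dkk3, Fzd1, Fzd2, Sfrp1, Sfrp2, Wnt10a, Wnt16 and Wnt5b, and Wnt9a was the one called higher.

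In PKO-1 against TM6, 1 member was higher (Wnt9a) and 12 were lower (52.2%), against 16.4% and 17.9% of all genes, with a median of -1.12 against 0.001. The 12 were Dkk3, Sfrp1, Sfrp2, Wnt4, Wnt5a, Wnt5b, Wnt7a, Wnt7b, Wnt10a, Wnt16, Fzd1 and Fzd6. In PKO-6 against TM6, 3 were higher (Wnt9a, Wnt7a and Fzd3) and 14 lower (60.9%), against 21.9% and 19.4% of all genes, with a median of -0.59 against 0.014. The 14 were Dkk2, Dkk3, Sfrp1, Sfrp2, Wnt5a, Wnt5b, Wnt10a, Wnt10b, Wnt16, Fzd2, Fzd4, Fzd5, Fzd6 and Fzd8. Leaving out the 3 that passed only through TM6, 9 of 20 were lower in PKO-1 and 11 of 20 in PKO-6, with medians of -0.69 and -0.53. Medians over the 23 were the same with members without a count set at their bound. These 3 comparisons share the TM6 libraries, so their counts are not independent of each other.

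With the clones pooled as PKO, 1 member was higher than TM6 (Wnt9a) and 9 were lower (39.1%), against 13.5% and 12.2% of all genes, with a median of -0.83 against 0.029. The 9 were Dkk3, Fzd6, Sfrp1, Sfrp2, Wnt10a, Wnt16, Wnt4, Wnt5a and Wnt5b, of which 6 remained among the 20 that did not pass through TM6 alone. Wnt10a, Wnt16 and Wnt5b, which passed only through TM6, could only be called lower. The pooled log2 fold change was -7.92 ± 0.29 (adjusted p = 6.64e-09) for Sfrp2, -3.92 ± 0.40 (adjusted p = 1.29e-05) for Wnt16, -3.10 ± 0.30 (adjusted p = 8.51e-06) for Wnt5b and -2.15 ± 0.29 (adjusted p = 8.69e-05) for Wnt5a. It was 2.92 ± 0.63 (adjusted p = 0.00239) for Wnt9a and -0.86 ± 0.21 (adjusted p = 0.00517) for Fzd6, calls that were both lost without any 1 of the TM6 libraries. For Dkk3 it was -3.31 ± 0.72 (adjusted p = 0.00262), lost without TM6 replicate 2, and for Sfrp1 the call (log2 -3.99 ± 1.04, adjusted p = 0.00789) was lost without any 1 of the TM6 or rho0 libraries or PKO-6 replicate 1, by DESeq2 (log2 -1.31, adjusted p = 0.0254), with only the groups compared and with chromosome medians removed. The count of 10 fell to 6 without TM6 replicate 1 or 3 and to 5 without TM6 replicate 2. Pooled PKO does not show members that moved in opposite directions in the clones: Wnt7a averaged 9.20 and 654 normalized counts in them and was not called (adjusted p = 0.352).

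In PKO against rho0, no member was higher (6.33% of all genes were) and 2 were lower (8.70%, against 4.36% of all genes). They were Wnt5a and Wnt4, and without rho0 replicate 2 or 3 only 1 was called. At an unadjusted p below 0.05, 5 members were higher by the same edgeR test, and DESeq2 called 2 higher (Fzd5 and Fzd8).

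The clones differed from each other in 15 of the 23 tested members. In PKO-1, 7 were higher than in PKO-6 (30.4%, against 11.5% of all genes) and 8 lower (34.8%, against 17.6% of all genes). The higher ones were Dkk2, Dkk3, Wnt10b, Wnt5a, Fzd2, Fzd5 and Fzd8. The lower ones were Sfrp1, Wnt7a, Wnt7b, Wnt9a, Fzd1, Fzd3, Fzd6 and Fzd9.

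**Figure D4:**
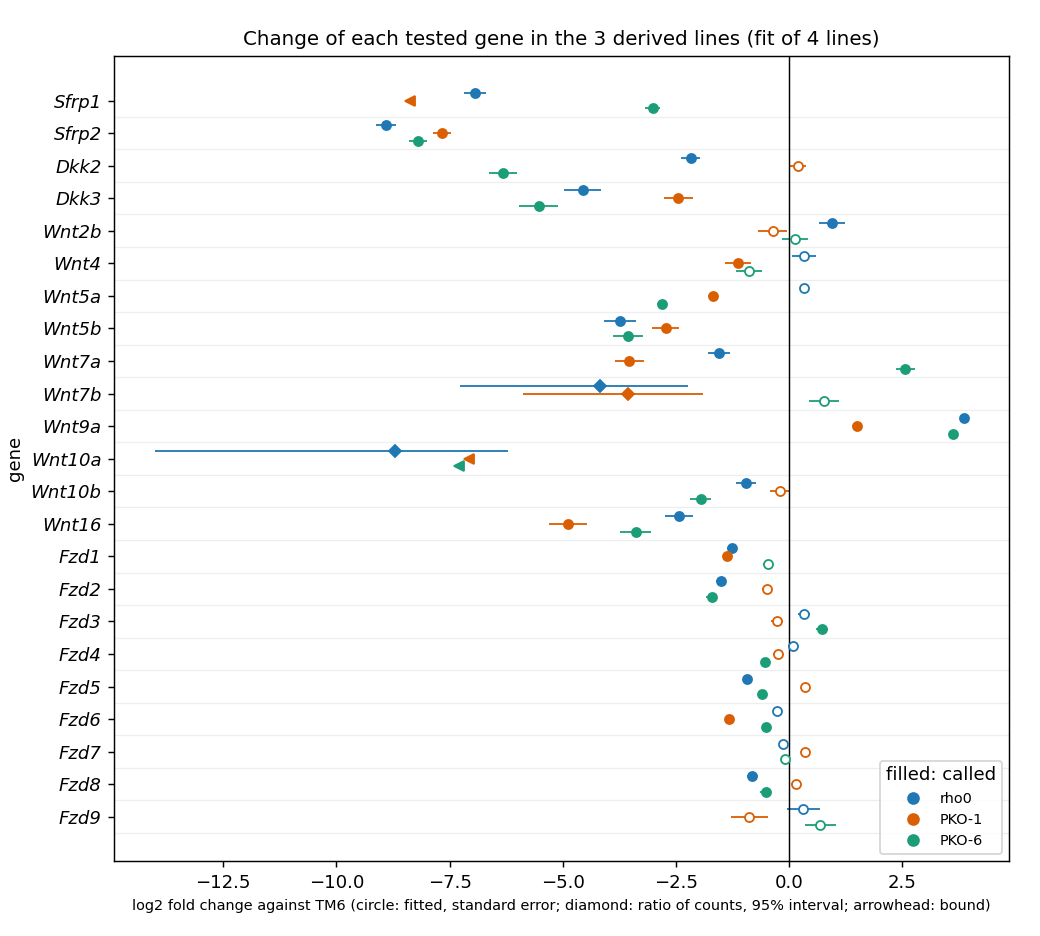
Log2 fold change of each tested member in rho0, PKO-1 and PKO-6 against TM6, from the fit of 4 lines; circles are fitted values with SE, diamonds are count ratios with 95% counting intervals, arrowheads are bounds for lines without a count, and filled symbols were called. Sfrp2, Wnt10a and Sfrp1 lie farthest to the left, Wnt9a lies to the right of 0 in all 3 lines, and Wnt7a lies on opposite sides in PKO-1 and PKO-6.

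Around the members, 69 further genes of the pathway were listed by role, and 59 of them were tested. In rho0 by the fit of 3 groups, 3 were higher and 15 lower (5.08% and 25.4%, against 13.7% and 15.6% of all genes). With 4 lines fitted, as for the clones, rho0 had 7 higher and 23 lower (11.9% and 39.0%, against 20.7% and 21.4%), PKO-1 had 7 and 22 (11.9% and 37.3%, against 16.4% and 17.9%), and PKO-6 had 12 and 23 (20.3% and 39.0%, against 21.9% and 19.4%). The median log2 fold change of the 59 was -0.32 in rho0 by either fit, -0.39 in PKO-1 and -0.28 in PKO-6. With the clones pooled, 5 were higher and 12 lower than TM6 (8.47% and 20.3%, against 13.5% and 12.2%), and 4 higher and 2 lower than rho0 (6.78% and 3.39%, near the 6.33% and 4.36% of all genes). Between the clones, 6 were higher in PKO-1 (10.2%, near the 11.5% of all genes) and 15 lower (25.4%, against 17.6%).

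Of 9 co-receptors and alternative receptors tested, 7 were called lower in rho0 (77.8%, against 15.6% of all genes), 5 in PKO-1 (55.6%, against 17.9%) and 8 in PKO-6 (88.9%, against 19.4%). The 5 in PKO-1 included Lgr6, whose call there was lost without TM6 replicate 3 or PKO-1 replicate 1 or 2 (adjusted p between 0.0137 and 0.0194). Their median log2 fold change was -0.98, -0.68 and -0.91. By edgeR none was higher in any of the 3, also at an unadjusted p below 0.05 (0 genes), and DESeq2 called 0 higher. Lgr4, a receptor for the R-spondins that amplify Wnt signals, averaged 3317 ± 67.8 normalized counts in TM6, 1175 ± 25.2 in rho0, 992 ± 46.2 in PKO-1 and 928 ± 35.6 in PKO-6 (log2 -1.84 ± 0.052, adjusted p = 1.95e-12 in PKO-6). Its relative Lgr6 averaged 169 ± 5.72 normalized counts in TM6, 15.6 ± 5.67 in rho0, 105 ± 16.3 in PKO-1 and 104 ± 13.02 in PKO-6 (log2 -3.42 ± 0.26, adjusted p = 1.92e-06 in rho0). Ror2, the receptor that carries Wnt5a signals outside the beta-catenin branch, averaged 2336 ± 143 normalized counts in TM6, 679 ± 53.6 in rho0, 557 ± 21.9 in PKO-1 and 885 ± 90.4 in PKO-6 (log2 -2.07 ± 0.085, adjusted p = 1.27e-10 in PKO-1). Secreted modulators with enough reads numbered 4. Rspo2, an R-spondin, averaged 1136 ± 49.4 normalized counts in TM6, 142 ± 5.55 in rho0, 367 ± 19.6 in PKO-1 and 40.9 ± 7.87 in PKO-6 and fell by log2 -4.80 ± 0.12 (adjusted p = 5.49e-13) in PKO-6. Rspo3 averaged 330.1 ± 10.98 normalized counts in TM6, 569 ± 40.4 in rho0, 548 ± 53.2 in PKO-1 and 130.2 ± 17.9 in PKO-6, and fell in PKO-6 (log2 -1.34 ± 0.11, adjusted p = 1.33e-07). By edgeR it was called higher in PKO-1 (log2 0.73, adjusted p = 3.55e-05). In rho0 it was called higher with 4 lines fitted (log2 0.79 ± 0.11, adjusted p = 1.42e-05) and not with 3 groups.

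Of the secretion genes, Wls, which carries Wnt proteins to the cell surface, averaged 10438 ± 376 normalized counts in TM6, 11429.9 ± 301 in rho0, 11793 ± 419 in PKO-1 and 10587 ± 263 in PKO-6, and was called in no comparison. Porcn, which adds the lipid to Wnt proteins, averaged 118 ± 9.31 normalized counts in TM6, 139.9 ± 11.9 in rho0, 56.2 ± 9.10 in PKO-1 and 114 ± 5.09 in PKO-6 and was called lower in PKO-1 (log2 -1.07 ± 0.14, adjusted p = 1.78e-05). Porcn lies on the X chromosome, whose median gene was lower in PKO-1 too, and with chromosome medians removed the value was log2 -0.35 and was no longer called.

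Of the 14 intracellular genes, 1 was higher and 2 lower in rho0, 2 higher and 2 lower in PKO-1, and 1 higher and 3 lower in PKO-6, shares below those of all genes except for the lower calls in PKO-6 (21.4%, against 19.4%). Csnk1a1, a kinase of the beta-catenin destruction complex on chromosome 18, rose from 10493 ± 746 normalized counts in TM6 to 22489.8 ± 925 in rho0 (log2 1.10 ± 0.094, adjusted p = 4.08e-06). It was also called higher in PKO-1 (log2 0.743) and PKO-6 (log2 0.959). The PKO-1 call was lost with chromosome medians removed (log2 0.366). Amer1, an X-linked scaffold of the same complex, averaged 1532 ± 116 normalized counts in TM6, 669 ± 82.6 in rho0, 811 ± 55.0 in PKO-1 and 645 ± 86.5 in PKO-6. It was called lower in every derived line (log2 -1.25 ± 0.11, adjusted p = 1.68e-07 in PKO-6). Each of these calls was lost when chromosome medians were removed (log2 -0.36 in PKO-6). Apc2, a relative of the tumour suppressor Apc, was higher in PKO-1 (log2 0.80 ± 0.086, adjusted p = 2.07e-06). Among the 10 nuclear effectors, Tle4, a corepressor of TCF factors, averaged 470.1 ± 26.6 normalized counts in TM6, 1769 ± 24.5 in rho0, 691 ± 45.7 in PKO-1 and 1013 ± 61.8 in PKO-6 and rose by log2 1.91 ± 0.19 (adjusted p = 9.96e-06) in rho0. Tle2 of the same family was lower in PKO-1 (log2 -1.49 ± 0.35, adjusted p = 0.00194), a call lost without TM6 replicate 1 or PKO-1 replicate 1 or 2. Bcl9l, a beta-catenin coactivator, averaged 9095 ± 758 normalized counts in TM6, 5198 ± 173 in rho0, 5745 ± 362 in PKO-1 and 4570 ± 546 in PKO-6. It was called lower in every derived line (log2 -0.99 ± 0.084, adjusted p = 1.34e-07 in PKO-6). The rho0 and PKO-1 calls were lost with chromosome medians removed.

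The planar polarity genes were called mostly lower in PKO-1 and mostly higher in PKO-6. Of 8 tested, 1 was higher and 4 lower in PKO-1, and 4 were higher and 1 lower in PKO-6. Vangl2, a core polarity protein, averaged 31.1 ± 6.65 normalized counts in TM6, 77.4 ± 6.45 in rho0, 5.38 ± 1.83 in PKO-1 and 182 ± 19.7 in PKO-6 (log2 2.55 ± 0.18, adjusted p = 2.41e-08 in PKO-6). Celsr2, an adhesion protein of the same system, averaged 102 ± 5.65 normalized counts in TM6, 53.9 ± 3.31 in rho0, 13.4 ± 4.09 in PKO-1 and 414 ± 24.8 in PKO-6 (log2 -2.90 ± 0.18, adjusted p = 6.21e-09 in PKO-1). Prickle1 averaged 234 ± 10.8 normalized counts in TM6, 39.1 ± 16.6 in rho0, 20.1 ± 7.45 in PKO-1 and 143 ± 8.28 in PKO-6 (log2 -3.52 ± 0.26, adjusted p = 4.42e-08 in PKO-1). Its lower call in PKO-6 (log2 -0.714) was lost by edgeR without any 1 of the TM6 libraries or PKO-6 replicate 1 or 3 (adjusted p between 0.0122 and 0.0217). It was also lost with chromosome medians removed (adjusted p = 0.0138). Between the clones, 4 of the 8 were lower in PKO-1 (50%, against 17.6% of all genes). None was higher (1 at an unadjusted p below 0.05 by edgeR, and 0 called by DESeq2), against 11.5% of all genes.

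Of 12 target and feedback genes tested, 2 were higher and 6 lower in PKO-1 (16.7% and 50%, against 16.4% and 17.9% of all genes). In PKO-6, 5 were higher and 5 lower (41.7% each, against 21.9% and 19.4%). In rho0 by the fit of 3 groups, none was higher (1 at an unadjusted p below 0.05 by edgeR, 0 called by DESeq2), against 13.7% of all genes. In the same fit 2 were lower (16.7%, near the 15.6% of all genes). With 4 lines fitted, rho0 had 2 higher and 5 lower (16.7% and 41.7%, against 20.7% and 21.4%). Wisp1, a target first found through Wnt1, averaged 6707 ± 379.8 normalized counts in TM6, 3202 ± 47.7 in rho0, 1326 ± 15.5 in PKO-1 and 2222 ± 158 in PKO-6 (log2 -2.34 ± 0.060, adjusted p = 1.55e-12 in PKO-1). Tnfrsf19 averaged 5.83 ± 2.89 normalized counts in TM6, 13.9 ± 3.07 in rho0, 11.4 ± 2.52 in PKO-1 and 199 ± 15.8 in PKO-6 and rose by log2 5.04 ± 0.26 (adjusted p = 8.06e-10) in PKO-6. Nkd2, a feedback inhibitor that binds Dishevelled, averaged 47.0 ± 12.2 normalized counts in TM6, 10.3 ± 3.97 in rho0, 10.4 ± 2.94 in PKO-1 and 420.2 ± 13.3 in PKO-6 and rose by log2 3.15 ± 0.19 (adjusted p = 3.25e-09) in PKO-6. Axin2, a widely used readout of canonical signalling, was named after its values were seen. It averaged 33.9 ± 3.88 normalized counts in TM6, 9.77 ± 4.43 in rho0, 6.57 ± 1.08 in PKO-1 and 15.4 ± 5.06 in PKO-6, and was called lower in PKO-1 (log2 -2.35 ± 0.36, adjusted p = 6.5e-05) and PKO-6 (log2 -1.14 ± 0.31, adjusted p = 0.00436). In rho0 it was called with 4 lines fitted (log2 -1.81 ± 0.34, adjusted p = 0.000286) and not with 3 groups (log2 -1.79 ± 0.51, adjusted p = 0.0119). The PKO-6 call was lost without TM6 replicate 1 or 3 or PKO-6 replicate 1 or 3 and by DESeq2 (adjusted p = 0.0161), and with the replicate number as a block its adjusted p was 0.0101.

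**Figure D5:**
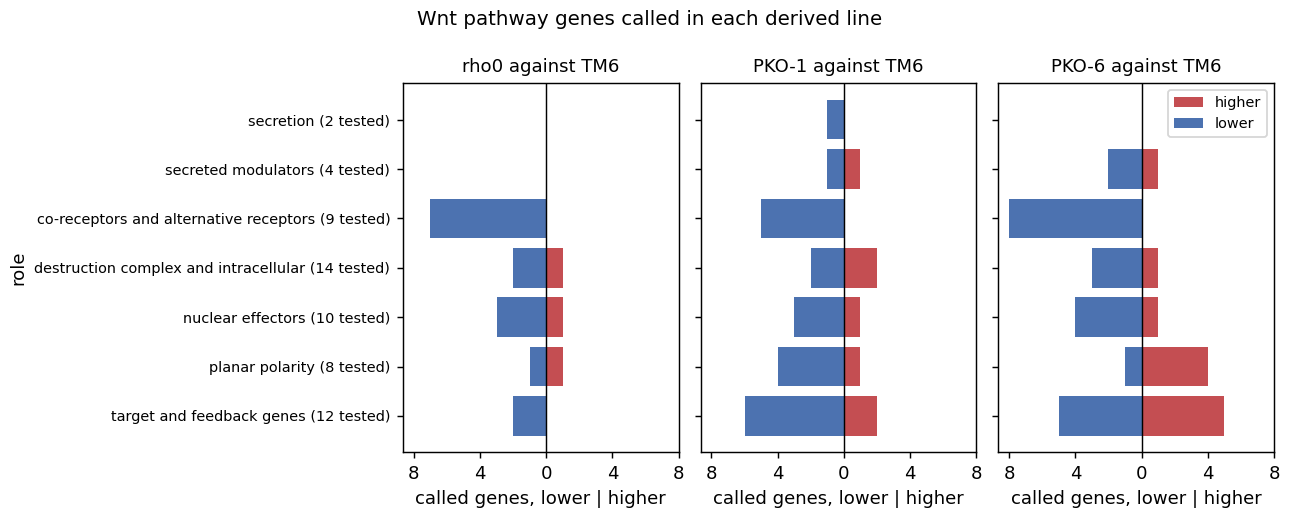
Number of tested pathway genes called lower (bars to the left of 0) and higher (bars to the right) in each role, for rho0 (fit of 3 groups), PKO-1 and PKO-6 (fit of 4 lines) against TM6. The co-receptors have bars on the lower side only, with 7, 5 and 8 of 9 genes, and the planar polarity genes have 4 lower in PKO-1 and 4 higher in PKO-6.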

How the data were processed

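Ribosome-depleted RNA from 12 libraries, 3 cultures each of TM6, rho0, PKO-1 and PKO-6, was sequenced as stranded paired-end reads, and technical duplicates were merged by the authors. According to the submitters' processing notes and the study's methods, reads were quantified with RSEM 1.2.25 on Bowtie2 against the RefSeq genes of mm10 (GRCm38). The deposited gene table holds the authors' expected counts, which are estimated and not always whole, and the authors' transcript files hold expected counts and TPM, which is scaled to gene length and to a common sum per library. The strand setting of the counting is not given in the sources used here.

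Expected counts were rounded to whole numbers. The filterByExpr function of edgeR, set to a count of 10, left 14026 genes, which were scaled by TMM and tested with the edgeR 4.0.16 quasi-likelihood test in R 4.3.3, with Benjamini-Hochberg adjustment over all of them. The fit of 3 groups pooled PKO-1 and PKO-6 as PKO, and the fit of 4 lines kept them apart. The thresholds for a call, 0.01 on the adjusted p and 0.5 on the size of the log2 fold change, follow the study's methods. The SE of a fold change was its size over the root of its F statistic. Fold changes against a line without a count were computed at a floor of 3 counts over the group, and those with 1 to 3 counts are given as count ratios with exact 95% intervals. Intervals and floors cover counting error only. Sums and shares between genes used TPM. Promoter windows came from RefSeq (GRCm38.p6). The test scripts were tested on simulated data.

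All 37 members were accounted for. Members called in a comparison and averaging 100 normalized counts or more in a line are given per library, other called members or those averaging 10 or more by line, and the rest by range. In each pathway role, up to 3 called genes with the largest change against TM6 and an average of 100 or more in a line were named. Whether replicate numbers pair the libraries was checked by the correlation of their deviations from the line means: for TM6 and PKO-6 the 3 same-numbered pairs gave 0.25, 0.25 and 0.209, so the blocked value stands beside a PKO-6 result where it changes a call. A marker gene of the lists is not reported here. The members and lists were chosen with earlier results of these data known. Alternatives were other size factors, DESeq2 1.42.0 with shrunken fold changes, no filter, a replicate block, only the groups compared, other call thresholds, Rn45s left out, chromosome medians removed, a fit of 4 lines, and each library left out.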

Additional observations from a re-analysis of the deposited data

Results flagged for a closer look

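In the 6 PKO libraries, Wnt4 of PKO-1 replicate 1 lay far from the others, at 29.8 normalized counts, with a gap of 0.653 of the whole range past Dixon's 95% limit for 6 samples. Chance passes that limit in about 1 of 20 groups. The limit assumes samples of 1 population, while these libraries come from both clones.

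The effect in the clones differed by a test of the difference itself, edgeR's quasi-likelihood test in the fit of 4 lines, for 15 members. As log2 fold changes of PKO-1 against PKO-6, the differences were 6.51 for Dkk2, 3.09 for Dkk3, 1.75 for Wnt10b, 1.22 for Fzd2, 1.12 for Wnt5a, 0.946 for Fzd5 and 0.668 for Fzd8. In the other direction they were -6.10 for Wnt7a, -2.13 for Wnt9a, -1.57 for Fzd9, -0.999 for Fzd3, -0.892 for Fzd1 and -0.814 for Fzd6. Sfrp1, without a count in PKO-1, had a bound of -5.35 at the floor, and Wnt7b, with few counts in PKO-1, had a count ratio of 20.2 (PKO-6 over PKO-1). Wnt7b passed the filter on low counts only through PKO-6, so its difference could only be called in that direction. The cause of these differences was not tested, and with 1 clone each a difference between clones cannot be told apart from one between derivations.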

How the results depend on the processing

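Of 66 calls of single members, 44 were kept under every alternative and none changed direction. Shrinkage by DESeq2 moved 26 of the 66 fold changes by over 1.5 times while 65 calls were kept. In the fit of 3 groups, whose biological coefficient of variation was 0.248 against 0.0837 for 4 lines, the counts moved most. Members called in rho0 against TM6 numbered 9, and 14 with only the groups compared and 16 with 4 lines fitted. In PKO against rho0, members numbered 2, and 5 by DESeq2, 4 with chromosome medians removed and 9 with 4 lines fitted. Pathway genes numbered 18 in rho0 against TM6 (30 with only the groups compared, 30 with 4 lines fitted and 9 with an absolute log2 fold change above 1), 17 in PKO against TM6 (27 with 4 lines fitted and 8 above 1) and 6 in PKO against rho0 (13 and 3). The limit of 1 also lowered pathway counts from 29 to 17 in PKO-1 and from 35 to 21 in PKO-6, and adjusted p alone raised that between clones from 21 to 34.

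Leaving out each library in turn gave 5 to 10 members for rho0, 5 to 10 for PKO, 1 to 3 for PKO against rho0, 12 to 14 for PKO-1, 16 to 19 for PKO-6 and 14 to 15 between clones, and 15 to 20, 13 to 19, 5 to 8, 27 to 31, 28 to 35 and 19 to 23 pathway genes in the same order. The 5 for rho0 came without rho0 replicate 2 or 3.

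The correlation of 18 same-numbered pairs of libraries ran from -0.385 to 0.25, over 0.1 in 10, against 10 of 36 pairs with other numbers. Pairs with other numbers ran from -0.416 to 0.49. All 3 same-numbered pairs were over 0.1 for TM6 and PKO-6 and for no other lines. As pairs with other numbers reached higher values, these correlations cannot show whether the numbers pair the libraries. With the replicate block, members called were 5 for rho0, 6 for PKO and 1 for PKO against rho0, and 13, 17 and 15 for PKO-1, PKO-6 and between clones, as without it. It ended the rho0 calls of Dkk3, Fzd1, Fzd2 and Sfrp1 (adjusted p 0.0103 to 0.0166) in the fit of 3 groups and, in PKO-6, that of Axin2 (0.0101). At 47164860 to 67991378 counts per library, members with few reads, such as Wnt7b with 3 reads in PKO-1, have ratios known only within wide counting intervals.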
